A study of Mus musculus with 90 samples.

Results

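The mitochondrial respiratory chain is built from proteins of 2 genomes, and the 93 genes described here are the nuclear share of it that the RNA table measures in mouse liver. They were taken by symbol from 24308 gene symbols in the table: names starting with Nduf for complex I, Sdha to Sdhd for complex II, Uqcr for complex III, Cox4 to Cox8 for complex IV, and Atp5 for complex V. Their 119 protein-coding RefSeq transcripts were reduced to the transcript with the highest mean for each symbol. Complex I holds 44 of the genes (7 core subunits, 29 accessory subunits, and 8 assembly factors), complex II 4, complex III 8, complex IV 20, and complex V 17. Ndufa4 and its relative Ndufa4l2 carry a complex I name and are counted here under complex IV, where the Ndufa4 protein is found.

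All mice were on a C57BL/6 background and on night-restricted feeding (NRF), in which food is withheld by day and given at the onset of night, and 54 livers of single mice were sequenced in 5 experiments. In the NRF experiment, 2 wild-type mice each were taken at zeitgeber time (ZT) 10, before food, and at ZT14 with or without food. In the injected experiment, 4 wild-type mice each were taken at ZT14 after vehicle without food or after an injection with food. The injections with food were vehicle, dexamethasone (dex, 1 mg/kg, an agonist of the glucocorticoid receptor GR), S961 (a peptide antagonist of the insulin receptor), or both agents. The labels give the S961 dose as 44 nM per mouse, which is a unit of concentration, and the study's methods give 44 nmol/kg. In the L-GRKO experiment, 4 unfed Nr3c1 fl/fl mice each had received adeno-associated virus (AAV) with GFP or with CRE under the liver-specific Tbg promoter. In the L-IRSdKO experiment, 4 fed Irs1 fl/fl, Irs2 fl/fl mice without and 4 with Alb-Cre, which acts in hepatocytes, were compared, and all 8 had received 1 mg/kg dex. In the obesity experiment, 3 wild-type mice each were unfed or fed at ZT14 after 10 weeks of chow (lean) or of high-fat diet (obese) followed by NRF. The study's methods give C57BL/6J for the L-IRSdKO mice and C57BL/6N for the NRF, injected, and L-GRKO mice. They name no substrain for the obesity experiment. Levels in L-IRSdKO set beside those of other experiments may thus differ in substrain, and its part was not tested.

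Complex I passes electrons from NADH, and complex II from succinate, to coenzyme Q. Complex III hands them on to cytochrome c and complex IV to oxygen, and complex V uses the proton gradient built along the way to make ATP. Hepatocytes are rich in mitochondria, and in fasting liver the chain regenerates the oxidized cofactors that fatty acid oxidation and gluconeogenesis depend on. Many of its nuclear genes are known targets of nuclear respiratory factor 1 (NRF1, unrelated to the feeding schedule), of the ETS-family factor GABP, and of the coactivator PGC-1alpha, the product of Ppargc1a.

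Some promoter features, which their names did not determine, were more frequent among these genes than over all RefSeq promoters. RefSeq promoter windows (GRCm38.p6, 250 bases before to 50 after each start) were found for 76 of the 93 genes, giving 81 windows. On either strand, the NRF1 letters (GCGCA, any base, GCGC) were present in 24.7% of the members' windows and in 4.6% of all 32851 windows, and the GABP letters CCGGAAG in 23.5% and 8.86%. The letters AANATGGCG of the factor YY1 were present in 13.6% and 2.38%. The FOXO letters TGTTTAC were present in 2.47% and 3.65%, the E-box CACGTG in 8.64% and 7.15%, and the glucocorticoid response element (GNACA, any 3 bases, TGTNC) in 0% and 0.475%. These are matches of letters and no measure of binding, and the 32851 windows include those of genes not tested in these livers.

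The windows of 4 genes are shown because the results below turn on them. Ndufaf4 is the single member that passed the test after the meal in lean mice. Uqcr11 was lower in unfed obese than in unfed lean mice at the wider threshold. The paired isoforms are Cox7a1, which rose with dex and in L-IRSdKO, and Cox7a2, which passed no test in the main fit. In this order, the windows lie at chr4:24897833-24898132 (+), chr10:80406772-80407071 (-), chr7:30183921-30184220 (+), and chr9:79759804-79760103 (-) of GRCm38.p6. Capitals mark a match to the letters above. The match is NRF1 in Ndufaf4 at 113 bases before the start, GABP in Uqcr11 at 66 bases before it, and FOXO on the opposite strand in Cox7a2 at 212 bases before it, and Cox7a1 holds none of the 6.
Ndufaf4: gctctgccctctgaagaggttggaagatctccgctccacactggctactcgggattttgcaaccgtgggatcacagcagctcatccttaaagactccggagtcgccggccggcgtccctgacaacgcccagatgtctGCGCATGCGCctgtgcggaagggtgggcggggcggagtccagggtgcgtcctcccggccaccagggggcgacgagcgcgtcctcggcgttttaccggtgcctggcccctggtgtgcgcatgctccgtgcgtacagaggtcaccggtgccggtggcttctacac
Uqcr11: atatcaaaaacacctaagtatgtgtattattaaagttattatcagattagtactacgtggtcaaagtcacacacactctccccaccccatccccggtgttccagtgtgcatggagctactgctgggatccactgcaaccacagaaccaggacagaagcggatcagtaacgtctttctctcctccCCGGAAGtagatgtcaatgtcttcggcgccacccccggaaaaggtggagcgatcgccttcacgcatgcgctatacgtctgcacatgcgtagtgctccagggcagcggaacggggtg
Cox7a1: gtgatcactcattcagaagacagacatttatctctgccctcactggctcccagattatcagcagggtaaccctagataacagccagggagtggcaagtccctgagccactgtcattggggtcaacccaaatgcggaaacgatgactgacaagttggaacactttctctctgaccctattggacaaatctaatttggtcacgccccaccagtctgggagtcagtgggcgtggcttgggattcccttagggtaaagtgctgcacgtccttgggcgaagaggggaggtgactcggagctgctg
Cox7a2: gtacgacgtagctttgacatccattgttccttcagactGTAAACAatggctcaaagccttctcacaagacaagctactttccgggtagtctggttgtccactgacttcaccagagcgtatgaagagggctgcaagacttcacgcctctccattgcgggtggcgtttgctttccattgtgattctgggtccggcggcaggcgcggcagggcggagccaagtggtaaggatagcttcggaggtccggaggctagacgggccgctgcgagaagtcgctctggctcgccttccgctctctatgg

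FOXO1, the transcription factor that insulin signalling keeps out of the nucleus, had a peak within 2 kb of the start of 9 of the 88 members placed on mm9 (10.2%, against 13.7% of the 12371 other genes tested). They included Atp5o and Ndufb3, and each peak was centred within 220 bases of the start. GR peaks lay within 2 kb of 2 members, Ndufa13 and Uqcrq (2.27%, against 8.13%), and DNase hypersensitive sites within 2 kb of 85 (96.6%, against 85.8%). Atp5o and Ndufb3 are the only 2 of the 9 that passed the test in L-IRSdKO, where 17.4% of all genes did. The former was higher and the latter lower. Their FOXO1 peaks, at chr16:91931913-91932092 and chr1:58643196-58643375 of mm9, are shown from the plus strand for that reason, and neither held any of the 6 sets of letters.
Atp5o peak: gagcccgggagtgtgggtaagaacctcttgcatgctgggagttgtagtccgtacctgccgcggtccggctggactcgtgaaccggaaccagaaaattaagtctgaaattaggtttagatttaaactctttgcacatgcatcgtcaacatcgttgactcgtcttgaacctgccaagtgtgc
Ndufb3 peak: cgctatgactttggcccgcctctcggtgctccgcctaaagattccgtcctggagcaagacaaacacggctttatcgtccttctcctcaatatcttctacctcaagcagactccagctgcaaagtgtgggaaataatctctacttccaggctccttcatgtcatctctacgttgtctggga

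The members were among the most abundant transcripts of every experiment. RPKM scales reads to transcript length and to the size of the library, which allows levels of different genes to be set side by side. Members with sequence found elsewhere in the genome are an exception, described below, since the handling of such reads is not given. The median member stood at 54.6 RPKM in NRF, 65.3 in injected mice, 104 in L-GRKO, 91.3 in L-IRSdKO, and 94.8 in the obesity experiment. The medians of all genes tested were 3.71, 5.34, 5.67, 9.29, and 5.62 RPKM, which placed the median member between the percentiles 93.7 and 94.8 of all genes. A mean of at least 0.5 RPKM, the filter for testing, was reached by 86 members in the NRF, injected, and obesity experiments, 87 in L-GRKO, and 88 in L-IRSdKO. Most of the rest were tissue isoforms, and Cox7b2 and Cox8c were at 0 in all 54 libraries.

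**Figure D1:**
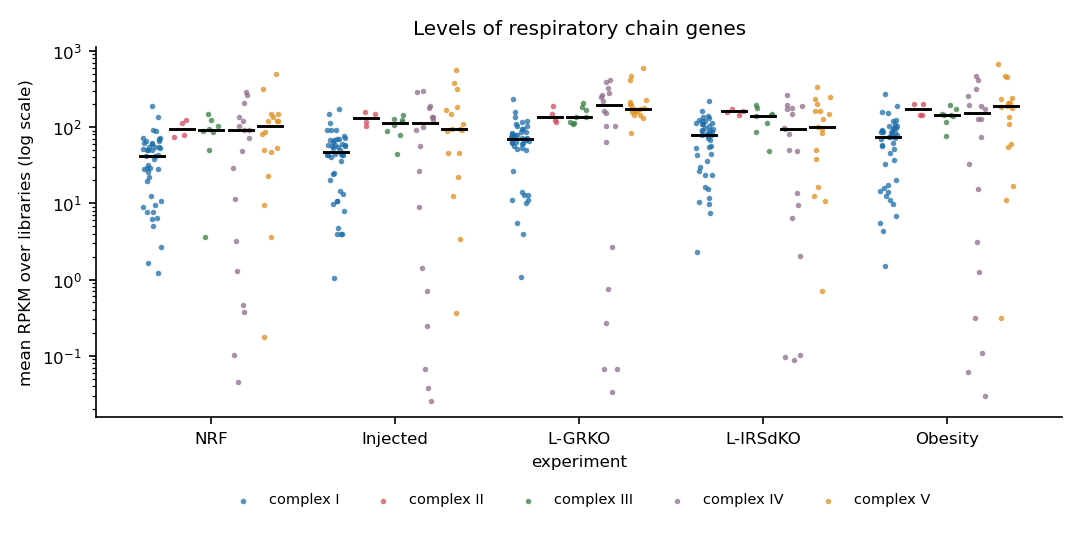
Mean RPKM of each of the 93 genes (y axis, log scale) by complex (colour) in the 5 experiments (x axis), with a black line at the median of the members of that complex that averaged 0.5 RPKM or more. Members at 0 are not drawn, and the complex I median is the lowest of the 5 in each experiment.

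By complex, the median level of the members that passed the filter for testing was 42.1 to 79.9 RPKM for complex I across the 5 experiments, 94.8 to 172 for complex II, 92.2 to 145 for complex III, 92.1 to 192 for complex IV, and 94.5 to 187 for complex V. The 5 highest members over all libraries were 2 subunits of the catalytic head of ATP synthase, its c-ring subunit, and 2 subunits of the complex IV group. Atp5b, which carries the catalytic sites, had a mean of 551.1 RPKM over the 54 libraries, Atp5a1 372, Atp5g3 337.3, Cox4i1 336.1, and Ndufa4 327.2. The order within this group was not the same in every experiment. Atp5b led in all 5, from 339 ± 16.4 RPKM (SD, n = 8) in L-IRSdKO to 677 ± 56.7 (SD, n = 12) in the obesity experiment. Atp5g3 stood at 119 ± 5.56 (SD, n = 6) in the NRF experiment, behind Cox4i1 at 285 ± 19.3 and Ndufa4 at 263 ± 23.3. The NRF libraries were ribosome-depleted and the others poly(A)-enriched, and Atp5g3 is represented by 1 of 3 RefSeq transcripts, so this order is not read as a result. In the main fit, none of these 5 genes passed the test in any of the 15 comparisons and interactions described below. With quantile normalization, Atp5b, Atp5a1, Atp5g3, and Cox4i1 were called higher in L-IRSdKO. Assembly factors of complex I, which help build the complex but do not stay in it, were at the other end, with Ndufaf5 at 1.05 to 2.29 RPKM.

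Complex II, the smallest complex and the only one with no subunit from the mitochondrial genome, was even in its levels. Its flavoprotein Sdha averaged 78 RPKM in the NRF, 157 in the injected, 188 in the L-GRKO, 173 in the L-IRSdKO, and 198 in the obesity experiment, and its iron-sulfur protein Sdhb 125, 147, 149, 157, and 201. The membrane anchors Sdhc and Sdhd averaged 74.8 to 146 and 112 to 165 RPKM. The 4 means differed from the lowest to the highest by less than 2-fold within each experiment. Only Sdhd passed a test in any comparison, in L-IRSdKO.

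Several complex IV subunits come as a common form and a form typical of other tissues, and in most pairs liver had almost entirely the common one. Cox4i2, Cox6a2, and Cox8b were at a median of at most 0.051% of their pair (Cox4i1, Cox6a1, Cox8a) in every experiment. Ndufa4l2 made up a median of 0.147% to 0.978% of its pair with Ndufa4. Cox6b2 made up a median of 0.0508% to 0.117% of its pair with Cox6b1 outside the L-IRSdKO experiment. In L-IRSdKO its median was 1.82% and its highest value 21.7%. Cox7a1 stood higher in the median of every experiment. Its median share of the sum of Cox7a1 and Cox7a2 was 1.34% in the injected mice, 2.08% in NRF, 2.42% in L-GRKO and in the obesity experiment, and 5.29% in L-IRSdKO. One library stood apart here. ZT14-unfed replicate 2 held 7.51 RPKM of Cox8b, 2.59 of Cox6a2, and 9.17 of Cox7a1, and its 7 muscle markers summed to 209 RPKM, against at most 1.44 in the other NRF libraries, and the part of the latter in the former was not tested.

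Levels of some members cannot be compared between experiments, or within an experiment with those of other genes. For each member, the share of its 50-base stretches that occur elsewhere in the mm9 genome was counted, since the counting tool and its handling of such reads were not given in the sources used here. Of the 26 members with at least 10% of stretches elsewhere, 10 had a mean in L-GRKO at least 3 times the median of the 3 other poly(A) experiments, and of the 64 other members measured 0 had. The most extreme were Atp5g2, a c-ring gene at 83.9 RPKM in L-GRKO and 0.368 in the injected mice, and Cox7c, a complex IV subunit at 281 and 9.08 RPKM. Its sister gene Atp5g1 was at 133 ± 20.5 RPKM (SD, n = 8) in L-GRKO and at 9.51 to 16.6 elsewhere, while Atp5g3, at 119 to 463 RPKM, varied least of the c-ring genes. Comparisons below are made within an experiment, and of the members named in them Atp5l had 89.4% of its stretches elsewhere, Cox5b 62.7%, Cox7a2l 54.3%, Ndufs5 49.8%, Ndufs3 43%, Ndufb4 41.3%, Uqcr11 39.1%, Atp5o 20.5%, and Ndufb3 10.6%, the others had under 10%, and Cox7a1, Ndufaf4, Ndufv3, Sdhd, and Ndufs1 had 0.

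**Figure D2:**
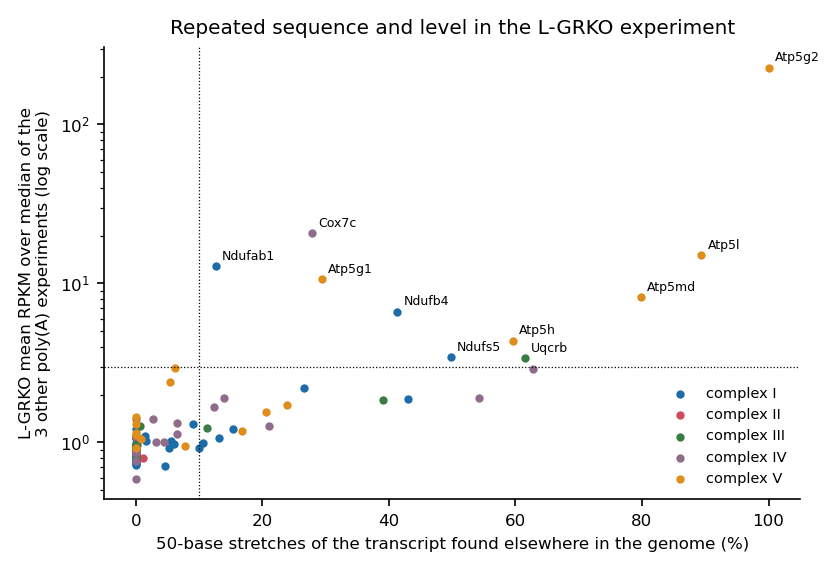
Each point is a member, with the percent of its 50-base stretches found elsewhere in the genome on the x axis and its mean RPKM in L-GRKO divided by the median of the means of the 3 other poly(A) experiments on the y axis (log scale); dotted lines mark 10% and a ratio of 3. The 10 members above a ratio of 3 all lie at or beyond 10%.

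Before the comparisons, the labels were checked. Nr3c1, which encodes GR, was at 12.8 to 16.2 RPKM with AAV-GFP and 3.93 to 5.35 with AAV-CRE, and Irs1 at 2.21 to 4.73 in fl/fl and 0.15 to 0.32 in L-IRSdKO. Irs2 overlapped, at 0.61 to 5.61 and 0.27 to 1.00. The 8 hepatocyte markers summed to 31532 to 79619 RPKM in 46 libraries but to 3100 to 3664 in the 8 of the L-IRSdKO experiment, fl/fl included, and the 5 replicate-4 libraries of the injected experiment stood apart from replicates 1 to 3, so values within each set are given below where a result rests on them. The RPKM table holds no read counts, and read totals that the study lists for its libraries were not used here. As a rough estimate, the steps that 1 read makes in low RPKM values put the deepest library at 1.47 times the shallowest in NRF, 2.08 in the injected, 3.61 in L-GRKO, 1.23 in L-IRSdKO, and 3.68 in the obesity experiment. In whole tissue, fewer cells of a type and less RNA per cell cannot be told apart, and with the mice of a group described only as replicates the p-values measure the spread between these livers.

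The NRF experiment asks what the hours before a meal and the meal itself do to liver RNA, and no member passed its test. A member was called at a Benjamini-Hochberg (BH) adjusted p under 0.01 from limma's linear model on log2(RPKM + 0.5), which is the scale of all fold changes below, adjusted over all genes of the experiment. From ZT10 to ZT14-unfed 0 of 86 members were called, against 1.16% of all genes, from ZT14-unfed to ZT14-fed 0 against 0.99%, and from ZT10 to ZT14-fed 0 against 1.71%. At an unadjusted limma p under 0.05, 0 members were higher and 5 lower in the first comparison, where 5.66% and 20.7% of all genes were. In the second 4 were higher and 3 lower (22% and 5.73% of all genes), and in the third 2 and 1 (14.7% and 13.6%). The median member moved by -0.02, 0.00, and -0.03, where the median of all genes moved by -0.10, 0.12, and 0.01, and the median SE of a member was 0.10. With median-ratio scaling, which brings the median gene to 0.01 and 0.00, the median member was at 0.10 in the first comparison and -0.13 in the second. With 2 mice a group, differences of this size were not detectable. Of the ZT14-unfed livers, replicate 2 is the library with the muscle markers described above. Cox8b, at a mean of 1.28 RPKM in this experiment, passed the filter for testing only through it. The part of this library in the comparisons with ZT14-unfed was not tested.

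At the wider adjusted threshold of 0.05 in limma, 2 members were lower at ZT14-unfed than at ZT10, where 7.01% of all genes were, and both were named after their values were seen. Ndufaf7, a methyltransferase that acts in complex I assembly, was at 3.22 and 3.35 RPKM at ZT10, 2.32 and 1.93 at ZT14-unfed, and 2.58 and 2.75 at ZT14-fed, and the first step was -0.53 (SE 0.12, adjusted p = 0.036). Atp5l, the g subunit of ATP synthase, was at 4.69 and 4.21, 3.23 and 3.04, and 3.36 and 3.46 RPKM in the same order, with a first step of -0.44 (SE 0.10, adjusted p = 0.044). In both genes the ZT10 livers lay above the other 4 without overlap. With a replicate block or with the compared groups alone, 0 members were lower at 0.05.

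In the injected experiment the median member was lower in fed than in unfed vehicle mice while the median gene was higher. No member was called at an adjusted limma p under 0.05 (0 of 86, against 3.13% of all genes), and at an unadjusted p under 0.05 0 were higher and 8 lower, where 15.5% and 3.81% of all genes were. The median member was at -0.13 and the median gene at 0.10, and 11 of 86 members had a fold change above 0, where 66.9% of all genes had. In 7 members every fed liver lay below every unfed one, against 2.5% of all genes, 2.01% of other genes with transcripts under 1000 bases, and 5.91% of other genes at the members' middle levels. The lowest adjusted p belonged to Ndufa6, a complex I accessory subunit named after its values were seen, at 111, 117, 148, and 147 RPKM in fed and 166, 169, 164, and 188 in unfed vehicle mice (-0.40, SE 0.12, adjusted p = 0.080). Its groups do not overlap. Within replicates 1 to 3 the member median minus the gene median was -0.24, and within replicate 4 it was -0.21. With a term in the limma model for the replicate-4 libraries, which stood apart from the others, 5 members were called, all lower, where 833 genes were higher and 203 lower. This was an alternative to the main fit, which called 0. The Kupffer cell markers summed to 143 to 154 RPKM in fed vehicle livers and 94.0 to 103 in unfed vehicle livers, and the endothelial markers to 68.3 to 77.1 and 59.4 to 65.7, and their part in the difference was not tested.

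Dex, S961, and the pair of them were each compared with the same 4 fed vehicle mice, so the 3 comparisons share their controls. The members' median was 0.10 with dex, 0.01 with S961, and 0.04 with both, where the median gene was at -0.10, -0.08, and -0.14. With dex 65 of 86 members had a fold change above 0, with S961 46, and with both 54, where 32.6%, 33.7%, and 27.5% of all genes had. With median-ratio scaling, which centres all genes near 0, these were 74, 66, and 80 members, and with quantile normalization 68, 45, and 55. The member median minus the gene median within replicates 1 to 3 and within replicate 4 was 0.22 and 0.21 with dex, 0.06 and 0.19 with S961, and 0.20 and 0.17 with both. The fed vehicle livers had the highest Kupffer cell marker sums of the experiment, against 72.5 to 139 RPKM with dex, 73.6 to 115 with S961, and 84.9 to 130 with both, which was not tested as a part of these differences.

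One member was called with dex, higher, and none lower (3.19% of all genes were called in either direction), and 0 were called with S961 (1.89%) or with both (10.6%). With the term for the replicate-4 libraries, 5 members were higher with dex, where 264 of 11248 genes were higher and 832 lower. In that fit 0 members were called with S961, where 201 genes were higher and 276 lower. With both agents 2 members were higher and 1 lower, where 475 genes were higher and 1728 lower. At an unadjusted limma p under 0.05, 7 members were higher and 1 lower with dex (4.17% and 14.4% of all genes), 0 and 1 with S961 (4.04% and 10.2%), and 1 and 0 with both (5.08% and 20.7%). The test of the interaction called 0 members and 0% of all genes, with 1 member (Ndufb4) higher and 2 (Atp5k and Cox7a1) lower at the same unadjusted threshold, where 3% and 1.56% of all genes were. The member that rose was Cox7a1, the muscle-type form of a small complex IV subunit. It was at 0.939, 0, 0.665, and 1.21 RPKM in fed vehicle livers and at 2.05, 3.85, 1.54, and 2.24 with dex, 2 groups that do not overlap. The change was 1.36 (SE 0.31, 95% interval 0.71 to 2.01, adjusted p = 0.020), and the adjusted p was above 0.05 without fed vehicle replicate 2, the library at 0, and without fed dex replicate 2, the highest.

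In the other groups Cox7a1 was at 0.924, 0.886, 0.821, and 1.91 RPKM with S961, at 2.17, 1.4, 1.3, and 1.38 with both agents, and at 1.56, 1.53, 1.05, and 1.08 in unfed vehicle livers. The S961 livers overlapped the fed vehicle livers (0.53, adjusted p = 0.48), and those with both agents lay above them (0.90, adjusted p = 0.071) without passing the test. Without fed vehicle replicate 2 these differences were 0.16 and 0.52, and without S961 replicate 4 the former was 0.33. The interaction for Cox7a1 was -1.0 (SE 0.44, adjusted p = 1). Its common partner Cox7a2 stayed within 0.06 of 0 in all 3 comparisons, with an SE of 0.33. A level near 1 RPKM rests on few reads in a transcript this short, and the gene lies at chr7:30969190-30971047 of mm9, with no GR or FOXO1 peak within 2 kb of its start, 2 GR peaks and 1 FOXO1 peak within 50 kb.

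**Figure D3:**
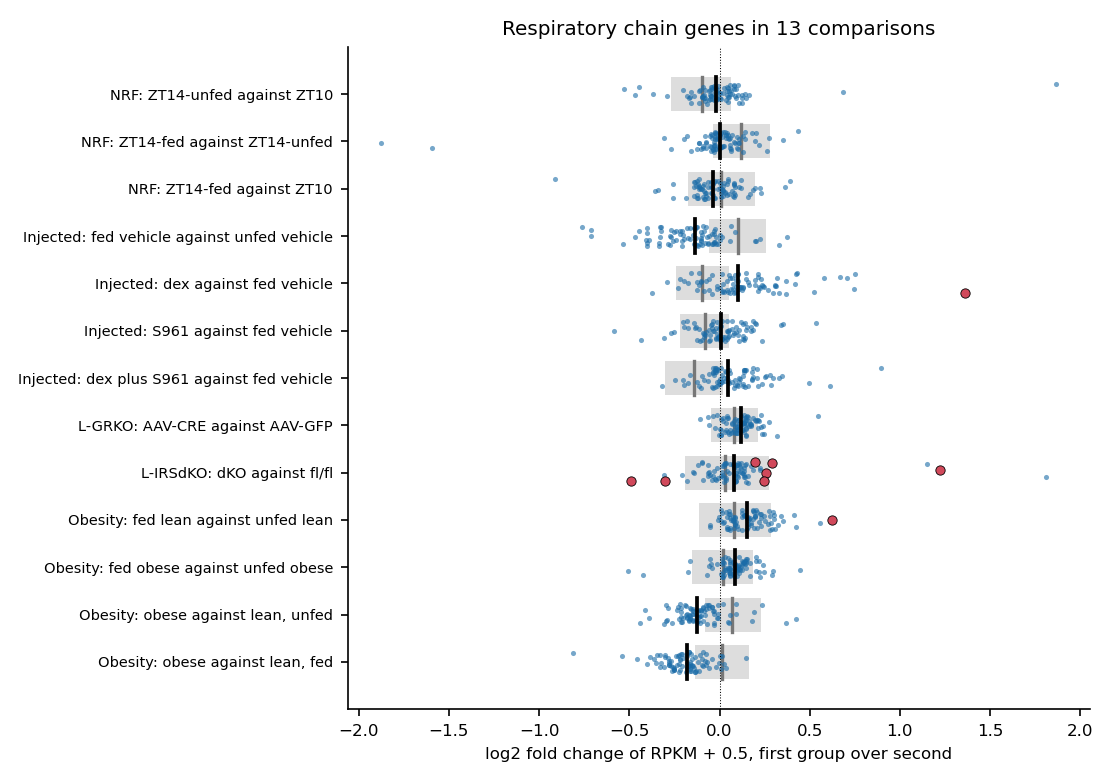
Log2 fold changes (x axis, log2(RPKM + 0.5) scale) of the members tested in the 13 pairwise comparisons (y axis); blue points are members, red points members past the threshold, black lines the member medians, and grey lines and boxes the median and quartiles of all genes tested. The member median is below the gene median in the vehicle meal comparison and in both obese against lean comparisons and above it with dex.

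Deletion of GR in unfed mice called 0 of 87 members at an adjusted limma p under 0.05, where 6.68% of all genes were called. Most members were slightly higher with AAV-CRE, 80 of 87 with a fold change above 0 and a median of 0.12, and so were all genes, 66.6% of them and a median of 0.08. With median-ratio scaling 53 of 87 members were above 0, with a median of 0.02, and with quantile normalization 58, with a median of 0.04. At an unadjusted p under 0.05, 7 members were higher and 0 lower, where 15.1% and 5.03% of all genes were. The lowest adjusted p was 0.10, for Ndufa6 (0.32), and Cox7a1 overlapped between the groups, at 0.972, 2.00, 3.90, and 1.97 RPKM with AAV-GFP and 3.95, 3.66, 2.59, and 2.65 with AAV-CRE (0.54, SE 0.28, adjusted p = 0.32). The red cell markers summed to 223 to 289 RPKM with AAV-GFP and 331 to 623 with AAV-CRE, and the part of this in the shift was not tested.

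Loss of Irs1 and Irs2 in hepatocytes, in mice that had all received dex, gave more calls among the members than any other comparison at the thresholds used. These thresholds differ between experiments, and at 0.05 the meal in lean mice called 10 members, described below. Of 88 members, 5 rose and 2 fell at an adjusted limma p under 0.05, where 17.4% of all genes were called, a larger share than the members'. The median member was at 0.08 and the median gene at 0.03. The 7 were in complexes I, II, IV, and V. With quantile normalization 24 members were called, 22 of them higher, where 1174 of all genes were higher and 1131 lower. In the main fit 1172 of all genes were higher and 1078 lower. Without 1 library the count of members called was 3 or 4, except without L-IRSdKO replicate 1, where it was 9. The groups did not overlap in 10 members higher in L-IRSdKO and 2 lower, against 12.1% and 9.58% of all genes.

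The largest rise was again that of Cox7a1, at 4.56, 3.62, 3.76, and 2.76 RPKM in fl/fl and 6.81, 11.8, 8.15, and 10.5 in L-IRSdKO livers. This was 1.22 (SE 0.20, adjusted p = 0.006), and it passed the test under each of 17 alternative analyses. Ndufb3, an accessory subunit of the complex I membrane arm at chr1:58643228-58652808 of mm9, fell most, from 72, 60.5, 65.1, and 66.0 RPKM to 49.7, 46.6, 47.3, and 43.5 (-0.49, SE 0.07, adjusted p = 0.005), also in each of 17 alternatives. Every L-IRSdKO liver lay above the fl/fl livers for the former and below them for the latter.

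Smaller changes were seen in 5 others. Ndufv3, the small subunit of the complex I flavoprotein part, fell from 98.2, 101, 95.5, and 88.6 RPKM to 78.6, 80.4, 80.8, and 70.5 (-0.30, SE 0.07, adjusted p = 0.020). Atp5o, the stalk subunit of ATP synthase that confers oligomycin sensitivity, rose from 96.5, 94.6, 90.1, and 87.5 RPKM to 111, 109, 116, and 106 (0.26, SE 0.06, adjusted p = 0.019). Ndufv3 lost its call in 3 of 17 alternatives and Atp5o in 4. The groups of both genes were apart, and for Atp5o antisense genes cover 31.3% of the exons and Donson, on the same strand, 12.7%, so reads of these genes may be shared.

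The other 3 were near the threshold, and each lost its call in 11 of 17 alternatives. Sdhd, a membrane anchor of complex II, rose from 156, 151, 154, and 154 RPKM to 169, 176, 187, and 173 (0.20, SE 0.05, adjusted p = 0.031). Cox7a2l, a Cox7a relative known from supercomplex assembly, rose from 45.6, 46.6, 46.8, and 42.5 RPKM to 48.7, 55.1, 57.1, and 55.2 (0.25, SE 0.07, adjusted p = 0.045). Ndufs1, the largest core subunit of complex I, rose from 83.9, 73.5, 79.4, and 87.3 RPKM to 86.1, 105, 105, and 102 (0.29, SE 0.09, adjusted p = 0.047), and its groups overlap. Their copy shares and positions were chr9:50404443-50411954 with 0% for Sdhd, chr17:83901259-83913673 with 54.3% for Cox7a2l, and chr1:63190170-63223396 with 0% for Ndufs1 (mm9).

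Other cell types moved with the genotype in these 8 livers. The Kupffer cell markers summed to 273 to 475 RPKM in fl/fl and 458 to 545 in L-IRSdKO, the endothelial markers to 97.4 to 122 and 125 to 161, the cholangiocyte markers to 19.7 to 46.2 and 7.87 to 13.9, and the red cell markers to 86.1 to 149 and 58.7 to 85.8. Their part in the members' changes was not tested. Cox6b2, the testis form of a complex IV subunit, and Ndufs5, an accessory subunit of complex I with 49.8% of its stretches elsewhere, varied over 10-fold between livers of 1 group and were named after their values were seen. Cox6b2 was at 0.5, 1.91, 9.90, and 0.907 RPKM in fl/fl and 48.3, 6.91, 3.90, and 2.84 in L-IRSdKO, groups that overlap (1.81, SE 0.94, adjusted p = 0.21), and at most 0.808 RPKM in the other 46 libraries. Ndufs5 was at 0.543 RPKM in fl/fl replicate 1, at 13.97 to 27.1 in the other 3 fl/fl livers, and at 17.2 to 22.7 in L-IRSdKO, which also overlap (1.15, SE 0.86, adjusted p = 0.39).

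**Figure D4:**
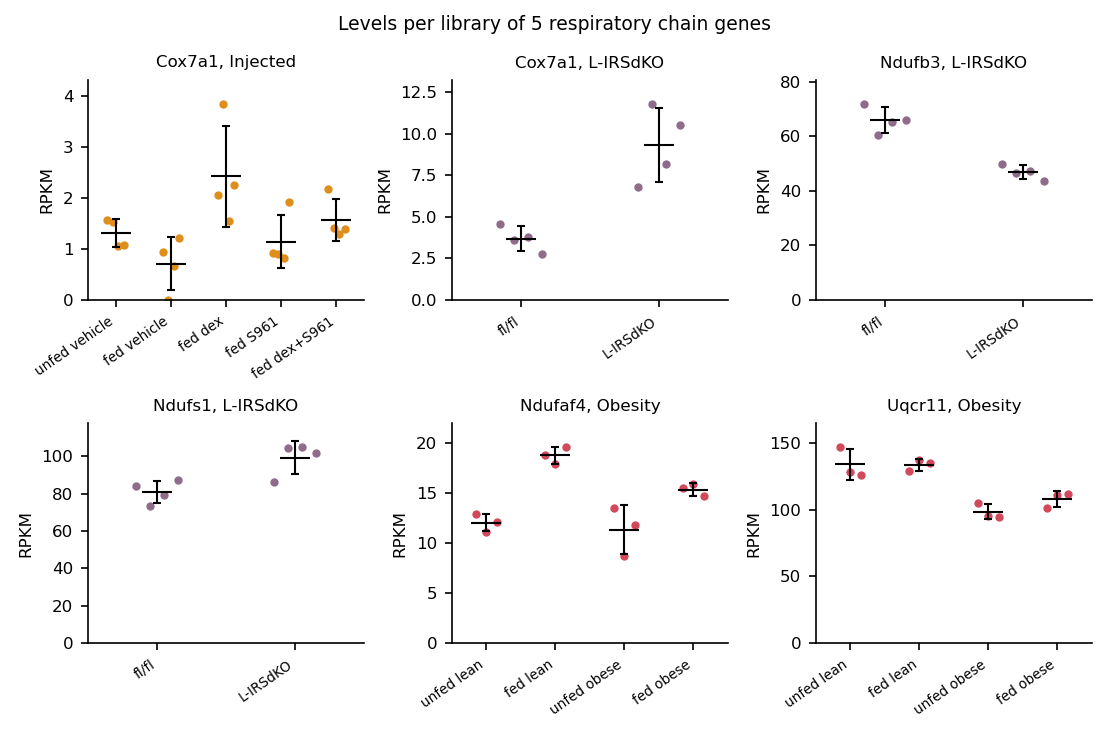
RPKM per library (points) with the group mean and SD (bars) of Cox7a1 in the injected and L-IRSdKO experiments, Ndufb3 and Ndufs1 in L-IRSdKO, and Ndufaf4 and Uqcr11 in the obesity experiment. For Cox7a1, the 4 dex livers lie at 1.54 RPKM and above and the 4 fed vehicle livers at 1.21 and below.

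A meal raised 1 member in lean mice of the obesity experiment at the adjusted limma threshold of 0.01 and lowered 0 of 86, where 10.2% of all genes were called. At 0.05, 10 were higher and 0 lower, where 23.4% of all genes were called, 16.1% higher and 7.28% lower. Of the 10, 9 belonged to complex I, which holds 44 of the 86 members tested, and 3 of these 9 were assembly factors. In 16 of the 86 members every fed lean liver lay above every unfed one, a smaller share than the 29% of all genes. These were 15 of the 44 complex I genes and 1 of the other 42. The median member was at 0.15 and the median gene at 0.08, a difference of 0.07. Without unfed lean replicate 1, whose members summed to 12519 RPKM against 10095 and 10484 in the other unfed lean livers, it was 0.16, without unfed lean replicate 2 it was -0.01, and without unfed lean replicate 3 or fed lean replicate 1 or 3 it was 0.03 to 0.04.

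The member that rose was Ndufaf4, a complex I assembly factor at chr4:24825230-24832148 of mm9. It was at 12.9, 11.1, and 12.1 RPKM in unfed and 18.8, 17.9, and 19.6 in fed lean livers, and at 13.5, 8.68, and 11.8 in unfed and 15.5, 15.9, and 14.6 in fed obese livers. The fed livers lay above the unfed ones under both diets. In lean mice the change was 0.62 (SE 0.13, adjusted p = 0.0068), and the adjusted p was above 0.01 in 9 of the 12 fits that left out 1 library, with a range of 0.57 to 0.67 for the change. In obese mice it was 0.44 (adjusted p = 0.060), and the interaction of diet and meal was -0.18 (SE 0.18, 95% interval -0.58 to 0.23), so a difference between the diets was not shown.

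The 9 others at the wider threshold include 2 more assembly factors, Ndufaf3 and Ndufaf7. Ndufaf3 was at 6.24, 4.46, and 5.50 RPKM in unfed and 7.99, 7.35, and 9.07 in fed lean livers (0.56, adjusted p = 0.036), and Ndufaf7 at 5.07, 3.89, and 4.32 and at 6.20, 6.62, and 5.49 (0.43, adjusted p = 0.021). Both pairs of groups are apart. Ndufa8, Ndufb7, Ndufa11, Ndufs7, Ndufb10, and Ndufs3, subunits of complex I, were higher by 0.34, 0.30, 0.29, 0.28, 0.27, and 0.23. The one complex IV subunit was Cox5b, at 76.4, 63.7, and 68.9 and at 84.4, 86.9, and 85 RPKM (0.30, adjusted p = 0.021).

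In obese mice the meal called 0 members (1.22% of all genes), with 6 higher and 0 lower at an unadjusted limma p under 0.05, where 15% and 10.2% of all genes were. Every fed obese liver lay above every unfed obese one in 22 members, where 16.8% of all genes did so, and the median was 0.08, against 0.02 for all genes. The test of the interaction of diet and meal called 0 members and 0.744% of all genes, with 0 members higher and 3 lower at an unadjusted p under 0.05 (5.79% and 9.19% of all genes), so that no member's response to the meal was shown to differ between the diets.

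The diets themselves were compared in unfed and in fed mice, and these comparisons share the 12 livers of the meal comparisons. Between unfed obese and unfed lean mice 0 members were called (0.77% of all genes), 14 were lower and 2 higher at an unadjusted limma p under 0.05 (6.52% and 16.4% of all genes), and the median was -0.12, against 0.07 for all genes. The difference of these medians, -0.19, was -0.09 without unfed lean replicate 1 and -0.26 to -0.17 without any other of the 12 livers. The groups did not overlap in 14 members lower in obese mice and 2 higher, against 6.73% and 16.2% of all genes. Uqcr11, a small subunit of complex III at chr10:79865742-79869575 of mm9 and named after its values were seen, passed the wider threshold of 0.05, where 1.7% of all genes were lower. It was at 105, 95.4, and 94.8 RPKM in unfed obese and 147, 129, and 126 in unfed lean livers (-0.44, SE 0.08, adjusted p = 0.015, and 0.13 with the compared groups alone), and at 101, 111, and 112 in fed obese and 129, 137, and 135 in fed lean livers (-0.31, adjusted p = 0.10). All 6 obese livers lay below all 6 lean ones.

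Between fed obese and fed lean mice no gene of the whole table passed an adjusted limma p of 0.01 (0 of 86 members and 0% of all genes). Fitted on these 6 livers alone, 46 of 11395 genes were higher and 47 lower at 0.01, with 0 members among them. At 0.05, 8 members were lower in that fit. The count over all genes at 0.05 was not taken for it, so the 8 are not read as a result. In the fit on all 12 livers, 0 members were higher and 26 lower at an unadjusted p under 0.05, where 10.5% and 9.48% of all genes were. The median member was at -0.18 and the median gene at 0.01, and 6 of 86 members had a fold change above 0, where 52.1% of all genes had. In 58 of the 86 members all 3 fed obese livers lay below all 3 fed lean livers, against 14.9% of all genes. These 58 were 28 of 44 in complex I, 2 of 4 in complex II, 5 of 8 in complex III, 9 of 14 in complex IV, and 14 of 16 in complex V.

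The other abundant or short genes were partly like the members in this. Fed obese livers lay below fed lean livers in 24.8% of other genes with transcripts under 1000 bases, in 25.2% of other genes at the members' middle levels, and in 52.2% of 90 cytosolic ribosomal protein symbols. More than 1 in 2 members, 53.4%, had transcripts under 1000 bases, against 7.84% of other genes. The hepatocyte markers also summed to less in fed obese livers, 50634 to 53504 RPKM against 59083 to 62686, and in unfed obese livers, 52518 to 57222 against 59794 to 68332, and the endothelial markers to 33.8 to 42.2 in unfed obese and 57.6 to 69.3 in unfed lean livers. The part of either in the members' shift was not tested.

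As single genes, the most abundant members showed the same order with overlap at the margin. Atp5b was at 681, 629, and 639 RPKM in fed obese and 726, 689, and 767 in fed lean livers. Cox4i1 was at 411, 394, and 419 and at 478, 419, and 449, and Atp5g3 at 420, 475, and 432 and at 569, 494, and 528. Of the 3, Atp5b and Atp5g3 were apart and Cox4i1 overlapped by less than 1 RPKM. Sdha was not lower in obese mice, at 204, 193, and 197 RPKM in fed obese and 206, 184, and 203 in fed lean livers (0.00, SE 0.08).

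**Figure D5:**
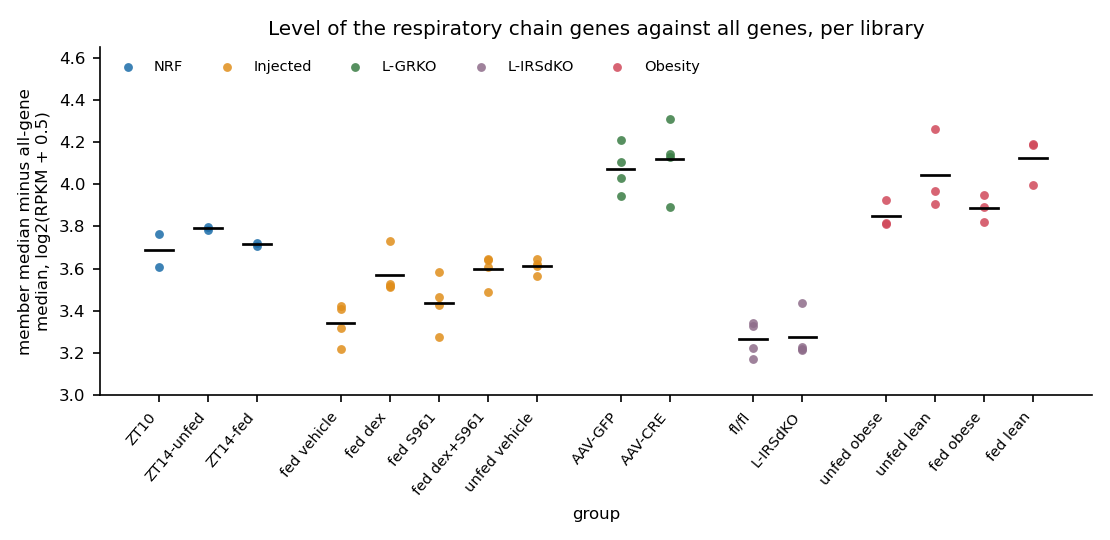
For each of the 54 libraries (points), the median log2(RPKM + 0.5) of the members tested minus the median of all genes tested (y axis, starting at 3), by group (x axis), with a line at the group mean. Fed vehicle livers of the injected experiment lie between 3.22 and 3.42 and unfed vehicle livers between 3.57 and 3.64, and fed obese livers between 3.82 and 3.95 and fed lean livers between 4.00 and 4.19.

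The neighbouring pathways were taken from lists of genes that act with the chain, chosen like the members with earlier results of these data known. In the lean meal comparison, other assembly factors of the chain had 10 higher and 0 lower of 42 at an adjusted limma p under 0.01, among them Sdhaf1, an assembly factor of complex II (0.92, SE 0.10), and Coa4 and Coa3 of complex IV (0.92 and 0.62), with a list median of 0.31, where 7% of all genes were higher and 3.23% lower. Mitochondrial ribosomal proteins had 14 higher and 1 lower of 76 (median 0.26), the citrate cycle 1 higher of 14 (Idh3a, 0.59), coenzyme Q synthesis 1 lower of 12 (Coq10b, -0.93), cytosolic ribosomal proteins 1 higher of 75, and the other electron carriers and the carriers of ADP, phosphate, and protons 0.

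In L-IRSdKO, where 9.04% of all genes were higher and 8.32% lower, the citrate cycle had 8 higher and 0 lower of 14, led by mitochondrial isocitrate dehydrogenase Idh2 (0.86, SE 0.07, adjusted p = 0.00062 in limma), with a list median of 0.22 against 0.03 for all genes. Of 5 carriers, the ADP/ATP carrier Slc25a4 (1.88, SE 0.29) and the uncoupling protein Ucp2 (0.91) rose. Other assembly factors had 4 higher and 3 lower of 42, other electron carriers and donors 2 higher and 1 lower of 9, mitochondrial ribosomal proteins 5 and 3 of 76, cytosolic ribosomal proteins 1 and 0 of 79, and coenzyme Q synthesis 0. In fed obese against fed lean mice 0 genes of any list were called, and the medians were -0.11 for mitochondrial ribosomal proteins, -0.27 for cytosolic ones, and -0.14 for the other assembly factors.

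Among 17 regulators of the chain's transcription and of mitochondrial DNA, Ppargc1a moved most. It rose with dex (0.96, SE 0.15), S961 (0.81), and both (1.08), which share their controls, rose by 2.18 (SE 0.25) in L-IRSdKO, and fell by 1.90 after the meal in lean mice (SE 0.25). The mitochondrial transcription factors Tfam (0.43) and Tfb2m (0.68) and the GABP subunit Gabpa (0.37) rose in L-IRSdKO, the mitochondrial helicase Twnk rose after the lean meal (0.80), Pprc1, a relative of Ppargc1a, after the meal in vehicle mice (0.64), and Gabpb2 fell by 0.42 with both agents.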

How the data were processed

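RNA was measured in 54 mouse livers. The authors prepared ribosome-depleted libraries (labelled ribo zero) in the NRF experiment and poly(A)-enriched libraries in the other 4, and deposited 1 table of RPKM values on 35707 RefSeq IDs. The submitters' processing notes name STAR, HOMER, DESeq2, and mm9, without versions. The counting tool, the strand counted, and the handling of duplicates and of reads with several matches are not given in the sources used here. Ribosomal depletion keeps transcripts without a poly(A) tail and their precursors, so levels are not set side by side between the 2 kinds of library as results. The depth of each library is unknown from RPKM alone. The deposited lists of GR, FOXO1, and DNase peaks were used for positions only.

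Symbols were given to 35402 IDs through a RefSeq table of GRCm38.p6, used for names, and 305 had none, with 0 value columns unused. Each symbol was represented by its ID with the highest mean. The 5 experiments had a model each, fitted by limma 3.58.1 (R 4.3.3, linear model, empirical Bayes with a variance trend) to log2(RPKM + 0.5) of the genes averaging 0.5 RPKM or more, which were 10904 in the NRF, 11248 in the injected, 11646 in the L-GRKO, 12963 in the L-IRSdKO, and 11431 in the obesity experiment. P-values were two-sided and BH-adjusted over all of these, with thresholds of 0.01 in the NRF and obesity experiments and 0.05 otherwise and for interactions, after the study's methods. Count tests were not used because the unit is RPKM. Positions and copies were taken from mm9 with GENCODE genes, and tables and plots were made with Python 3.11.15, pandas 2.3.3, numpy 2.4.6, numba 0.67.0, and matplotlib 3.10.9. The fits were tested on simulated data.

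The members and all gene lists were chosen with earlier results of these data known, so the counts over them are descriptions. Genes are named by a rule: the 5 largest rises and falls of the members past the threshold in each comparison, the tissue isoform pairs and the c-ring genes, the 5 highest members, the Sdh genes, the regulators past the threshold, and Nr3c1, Irs1, and Irs2. Genes outside it are said to be named after their values were seen, or stand in a count of lists. S961 is named in the titles of all its samples, while the treatment labels of single replicates give names with a higher last digit. Replicate numbers in the labels did not pair the samples: same-numbered injected libraries correlated in their deviations from the group means by 0.44 to 0.61 for replicate 4, but down to -0.12 for replicates 1 to 3, and the other experiments showed no shared deviation in every pair. Results were recomputed with a pseudocount of 0.1 or 1, with the filter dropped or set to 2 RPKM, after quantile normalization or median-ratio scaling, with the IDs of a symbol summed, with a replicate block, a term for the replicate-4 libraries, the compared groups alone, the other threshold, other distances to peaks, and each library left out in turn. A fit of injected replicates 1 to 3 alone was chosen after seeing the data.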

Additional observations from a re-analysis of the deposited data

Results flagged for a closer look

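In groups of 4 mice, a single library lay far from the other 3 (by Dixon's criterion at the 95% level) in 22 of 216 values examined, where chance gives about 1 in 20. Many were replicate-4 libraries of the injected experiment. Cox4i1 was at 186 RPKM in fed vehicle, 178 in fed dex, 178 in fed S961, and 196 in unfed vehicle replicate 4, below the other 3 of each group, which were at 320 or more. Cox7a2l replicate 4 was at 31.4 with both agents and 33.5 in unfed vehicle mice, and Cox8a replicate 4 at 229 and 182. Ndufa11 was at 12.8 and Sdhb at 134 in unfed vehicle replicate 4, Ndufv3 at 91.2 and Sdha at 173 in fed dex replicate 4, and Sdhd at 72.7 in fed vehicle replicate 4. Cox7a1 was at 1.91 in fed S961 replicate 4.

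Elsewhere in the injected experiment, Atp5b was at 565 RPKM in fed vehicle replicate 3, Sdhb at 108 in fed S961 replicate 3, and Cox7a1 at 2.17 with both agents in replicate 1. In the knockout experiments, Cox6b2 was at 0.808 RPKM in AAV-CRE replicate 1, at 9.90 in fl/fl replicate 3, and at 48.3 in L-IRSdKO replicate 1. Ndufb3 was at 46.2 RPKM in AAV-CRE replicate 1, and Sdhb at 141 in fl/fl replicate 2.

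The meal went with opposite directions of the members in 2 experiments. The mean log2(RPKM + 0.5) over the members was lower by -0.162 in fed than in unfed vehicle mice, where all 4 fed livers lay below all 4 unfed ones, and higher by 0.0771 in fed than in unfed obese mice, where all 3 fed livers lay above all 3 unfed ones. In lean mice, which shared the chow diet with the vehicle mice, it was higher by 0.162 in fed mice, with groups that overlap. Set against the median of all genes, the obese livers overlapped, at 3.82 to 3.95 in fed and 3.81 to 3.93 in unfed mice. In uninjected NRF mice at ZT14, fed against unfed, the member median minus the gene median was -0.12. That comparison had 2 mice a group and includes the library with the muscle markers. The difference between the experiments was not tested, and vehicle injection and experiment cannot be told apart.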

How the results depend on the processing

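Of 156 repeated counts of members called, 128 were the same as the reported count or within 1.5 times of it. Most reported counts were 0, and a 0 that stayed 0 is among the 128. Members were called in the main fit only with dex, in L-IRSdKO, and for the lean meal, and there many counts moved. No called result reversed its direction, and the cause of the changes was not tested. In the injected experiment, the meal called 3 members with a replicate block, 5 with a term for the replicate-4 libraries, and 1 in replicates 1 to 3 alone. With dex it was 2 with median-ratio scaling, quantile normalization, or replicates 1 to 3 alone, 3 with the replicate block, 5 with the term for the replicate-4 libraries, and 0 with the compared groups alone, at an adjusted p of 0.01, or with the filter at 2 RPKM, which removes Cox7a1. With both agents it was 1 with either scaling, the replicate block, or replicates 1 to 3 alone, and 3 with the term. In L-IRSdKO it was 4 without a filter or with median-ratio scaling, 24 (22 higher) with quantile normalization, 3 with the replicate block, and 2 at 0.01. For the lean meal it was 0 without a filter or with either scaling and 10 at 0.05, in unfed obese against lean mice 1 with median-ratio scaling or at 0.05, and at ZT14-unfed against ZT10 2 at 0.05. Counts over all genes moved with these settings too. They are given above for the term and for quantile normalization in L-IRSdKO.

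Leaving out 1 library of the NRF experiment leaves 1 mouse in its group, so counts of members called are not given for it. Without ZT14-unfed replicate 1, the mouse left is replicate 2, the library with the muscle markers. In the other experiments, leaving out 1 library gave 0 to 1 for the vehicle meal, 0 to 2 with dex, and 0 to 1 with both agents. It gave 3 to 9 in L-IRSdKO, 0 to 1 for the lean meal, 0 to 1 for unfed obese against lean, and 0 to 0 in the other comparisons. For the lean meal the count stayed at 1 only without an unfed obese library or unfed lean replicate 1, and Ndufaf4 itself passed in 3 of those 4 fits. The replicate numbers do not pair the samples, and the block changed no other count at the reported threshold by over 1.5 times. The difference between the member and gene medians kept its sign under 11 of 11 alternatives for the vehicle meal and for dex, and under 9 of 9 for both comparisons of obese with lean, but under 8 of 9 for ZT14-fed against ZT10 (-0.04 to 0.00) and 5 of 8 for the interaction of diet and meal (-0.04 to 0.01), where no member was called. It also turned without ZT10 replicate 1 for ZT14-fed against ZT10 (0.01) and without L-IRSdKO replicate 3 in L-IRSdKO (-0.01). Within 5 kb, 100% of members had a DNase site, and within 20 kb 23.9% had a GR and 25% a FOXO1 peak. Values near 1 RPKM, as for Cox7a1 in the injected mice, are limited by depth.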
